A study of Arabidopsis thaliana with 6 samples.

Results

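Dehydrins are a family of very hydrophilic, largely unfolded proteins that belong to the late embryogenesis abundant (LEA) proteins. They are recognised by a lysine-rich stretch, the K-segment, which can fold into a helix on membranes and on other proteins. Plants accumulate them in maturing seeds and, in growing tissue, under cold, drought, salt or the hormone abscisic acid (ABA), and some are also present in unstressed root tips. Of the 10 Arabidopsis thaliana dehydrin genes considered, 6 had a probe set with 1 gene in the platform annotation used here, among the 22810 probe sets of the array, and 4 of these 6 were bright enough to be tested. The genes were chosen by family, after the values of 3 of them had been seen: the fold changes of AT4G38410, COR47 and LTI30 between the genotypes were known when the family was selected on them. Those fold changes are therefore given as a description with no p. The remaining 7 loci entered by annotation alone.

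The samples were root meristems cut out by microdissection from seedlings at 7 days after sowing. Wild type (WT, 3 arrays) was set beside 35S:miR396 plants (3 arrays), which overexpress the microRNA miR396 from a constitutive viral promoter that is not restricted to the meristem. All plants grew upright on agar medium with salts and sucrose in 16 hours of light and 8 of darkness at 21 °C, with no further treatment, so no cold, drought or ABA was applied to either group. The labels call the 3 samples of a group biological replicates, and whether the transgenic samples came from 1 line is not given in the sources used here. A p-value therefore sets a difference against the spread between these samples and does not speak for other lines. In Arabidopsis miR396 is best known for restricting the growth-regulating factors (GRFs), but none of 7 targeted GRF genes and neither of 2 MIR396 genes had a named probe set, so the genotype rests on the labels.

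Values are log2 GCRMA levels per probe set, on which 1 unit is a doubling, and the lowest value on every array was 2.25. This floor held much of the array, with 35.1% to 35.4% of non-control probe sets within 0.1 of it. A probe set was tested if it reached 4 in at least 3 of the 6 arrays, and it was called at an adjusted p under 0.05. That call was made at 25.0% of the 11364 tested probe sets, 12.7% as higher and the rest as lower in 35S:miR396. The 2838 calls fell to 1298, 1052 and 1499 without WT replicates 1, 2 and 3. They fell to 1606 and 1362 without replicates 1 and 3 of 35S:miR396, and rose to 3813 without its replicate 2. On the first principal component, which held 70.4% of the variance, replicate 2 of 35S:miR396 (11.3) lay closer to WT (-28.9 to -22.9) than replicates 1 (37.9) and 3 (27.2).

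The 6 measured dehydrins fell into 2 kinds. The probe sets of AT4G38410, COR47, LTI30 and AT1G54410 gave signal in both genotypes, and their values in 35S:miR396 all lay above their values in WT. AT2G21490 and AT4G39130 stayed within 0.2 of the lowest value in every array. The fit called 3 of the 4 tested dehydrins, all as higher, beside 12.7% of all tested probe sets called as higher. The groups did not overlap, with 35S:miR396 higher, at 4 of 4, beside 21.5% of all tested probe sets. The median log2 fold change of the 4 was 0.93, beside -0.01 over all tested probe sets. Because values of this contrast entered the choice of the family, nothing is read from these counts. The count of called dehydrins was 2 without any single WT array, without replicate 1 or 3 of 35S:miR396, and without the brightness filter. In each of these settings LTI30 was the one no longer called. Over the 14 alternatives LTI30 was called in 7, AT4G38410 in 13 and COR47 in 14. In whole tissue a higher level can mean more cells of a type or more RNA per cell, which cannot be told apart here.

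**Figure D1:**
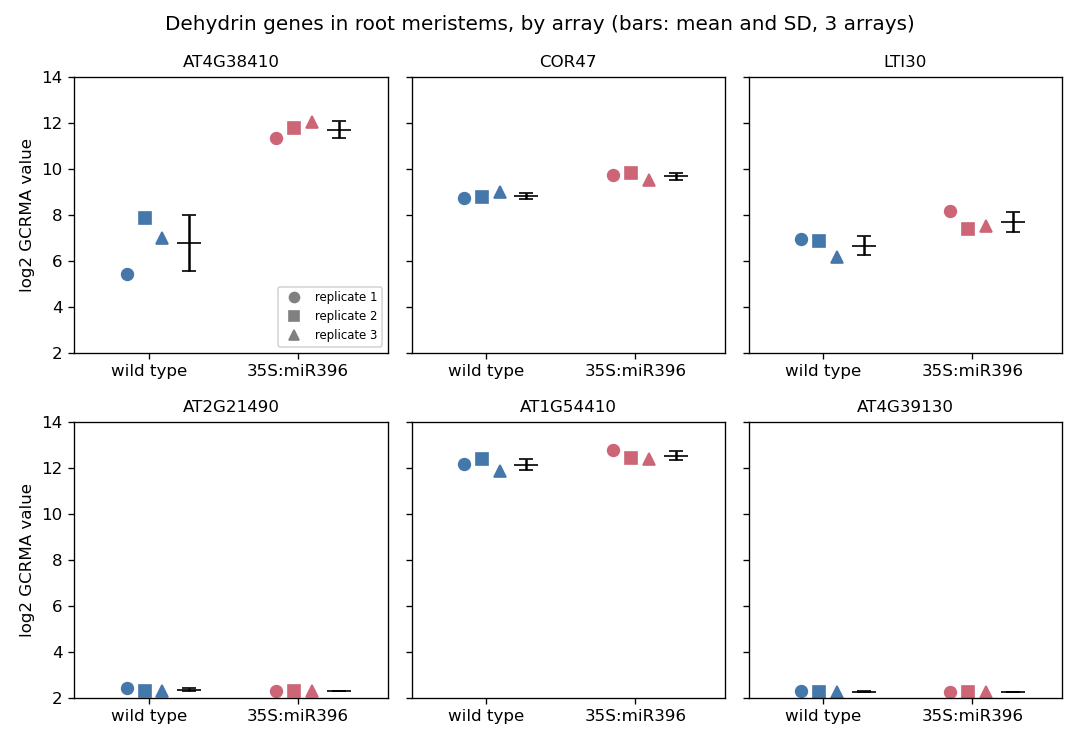
Each panel shows 1 dehydrin probe set, with the log2 GCRMA value on the vertical axis and the genotype on the horizontal axis. Coloured points are single arrays, their shape gives the replicate number, and the black bars are the mean and SD of 3 arrays. AT4G38410 lies between 5.44 and 7.88 in WT and between 11.33 and 12.03 in 35S:miR396, while AT2G21490 and AT4G39130 stay within 0.2 of the lowest value.

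AT4G38410 encodes a dehydrin known mainly by its locus code. Its log2 level was 5.44, 7.88 and 6.99 in WT replicates 1, 2 and 3. In replicates 1, 2 and 3 of 35S:miR396 it was 11.33, 11.78 and 12.03. All 3 transgenic arrays were high, and the lowest of them stood 3.45 log2 units above the highest WT array. The group means were 6.77 ± 1.24 (SD, n = 3) in WT and 11.71 ± 0.36 (SD, n = 3) in 35S:miR396. The log2 fold change was 4.94 ± 0.56 (SE), the highest of the 11364 tested probe sets.

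The size of this fold rested on the wild type, where the arrays differed most. WT replicates 1 and 2 lay 2.44 log2 units apart, a 5.44-fold difference within a single genotype, and only 9 of the tested probe sets had a larger SD over the WT arrays. In 35S:miR396 the range was 0.70. The fold was 19.4 without WT replicate 1, the lowest array, and 45.2 without WT replicate 2, the highest, against 30.8 with all arrays. Leaving out any single transgenic array gave log2 fold changes from 4.78 to 5.13.

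COR47 encodes an acidic dehydrin induced by cold and water loss, first known as a cold-regulated protein. Its log2 level was 8.71, 8.79 and 8.99 in WT and 9.72, 9.81 and 9.50 in 35S:miR396, in the order of the replicate numbers. The groups lay 0.51 apart at their nearest arrays. From 8.83 ± 0.14 to 9.68 ± 0.16 (SD, n = 3 each), the log2 fold change was 0.85 ± 0.11 (SE), which is 1.80-fold. It ran from 0.77 with array weights to 0.94 without replicate 3 of 35S:miR396.

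Of the 2 genes beside COR47 on chromosome 1, 1 had a named probe set. On one side lies ERD10, its close relative in the family, which had no named probe set. On the other side lies AT1G20430, whose level was 9.18 ± 0.08 in WT and 9.18 ± 0.10 in 35S:miR396 (SD, n = 3 each). The log2 fold change of AT1G20430 was 0.00 (95% interval -0.18 to 0.18, limma), while that of COR47 was 0.85. The difference between the fold changes of the neighbours was not tested.

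LTI30, also called XERO2, encodes a basic dehydrin made almost entirely of repeated K-segments, which binds membranes and is induced by cold and ABA. Its log2 level was 6.95, 6.86 and 6.18 in WT and 8.17, 7.37 and 7.51 in 35S:miR396, in the order of the replicate numbers. The groups did not overlap, but each was spread out: WT replicate 3 was low and replicate 1 of 35S:miR396 was high. The means were 6.66 ± 0.42 and 7.68 ± 0.43 (SD, n = 3 each), and the log2 fold change was 1.02 ± 0.27 (SE), or 2.03-fold.

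The log2 fold change of LTI30 moved with both of its outlying arrays. It was 0.78 without WT replicate 3 and 0.78 without replicate 1 of 35S:miR396. Without WT replicates 1 and 2 it was 1.16 and 1.12, and without replicates 2 and 3 of 35S:miR396 it was 1.18 and 1.11. LTI30 was called under 7 of the 14 alternatives. The gene next to LTI30 on chromosome 3 is another dehydrin, XERO1, which had no named probe set.

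AT1G54410, also called HIRD11, encodes a small histidine-rich dehydrin that binds metal ions. Its log2 level was 12.2, 12.4 and 11.9 in WT and 12.8, 12.4 and 12.4 in 35S:miR396, in the order of the replicate numbers. WT replicate 2 and the lower transgenic arrays were almost level: the groups missed overlapping by 0.03 log2 units. The means were 12.15 ± 0.25 and 12.54 ± 0.21 (SD, n = 3 each). The log2 fold change was 0.39 ± 0.14 (SE), with a 95% interval from 0.05 to 0.72 before adjustment, and it did not pass the test (adjusted p = 0.0870 by limma over all tested probe sets). Over the alternatives the adjusted p ran from 0.0442, with the replicate number as a block, to 0.331.

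LTI30 and AT1G54410 had their lowest and highest arrays in common. For both, WT replicate 3 was the lowest of the 6 and replicate 1 of 35S:miR396 the highest. These were also the 2 arrays at the ends of the first principal component (-28.9 and 37.9). AT4G38410 and COR47 did not share this order. AT4G38410 was lowest in WT replicate 1 and highest in replicate 3 of 35S:miR396, and COR47 was lowest in WT replicate 1 and highest in replicate 2.

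**Figure D2:**
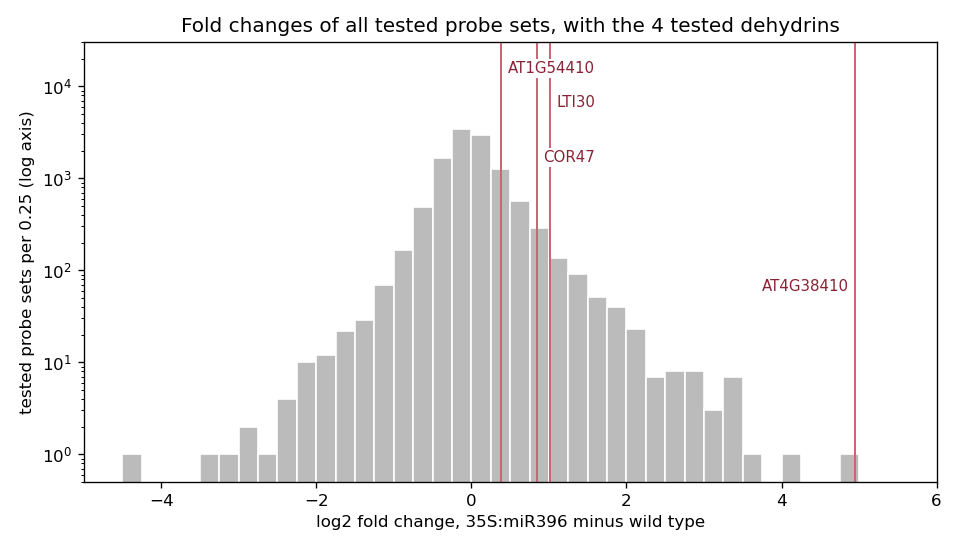
The grey bars count all 11364 tested probe sets by log2 fold change, 35S:miR396 minus wild type, in bins of 0.25, on a log axis. The red lines mark the 4 tested dehydrins, with AT4G38410 alone at 4.94 and AT1G54410, COR47 and LTI30 at 0.39, 0.85 and 1.02.

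The fold changes of the dehydrins differed widely in size. AT4G38410 stood 1st among the tested probe sets ordered from the highest fold change down, LTI30 was 365th, COR47 545th and AT1G54410 1703rd. The 3 smaller ones lay among many other probe sets, since 335 were called with at least a doubling, a mark that LTI30 just passed and COR47 did not reach.

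The remaining measured members were dim. AT2G21490, whose annotated symbol is LEA, stood between 2.30 and 2.41 in WT and at 2.30 in the 3 transgenic arrays. AT4G39130 stood at 2.25 in 5 arrays and at 2.27 in WT replicate 1. Neither reached the level needed for a test, and a value at or near the floor does not show that a transcript was absent. The other 4 loci, ERD10 (AT1G20450), ERD14 (AT1G76180), RAB18 (AT5G66400) and XERO1 (AT3G50980), had no named probe set and were not analysed here. ERD10 and ERD14 are relatives of COR47 with chaperone-like activity, and RAB18 is a classical ABA-induced dehydrin.

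**Figure D3:**
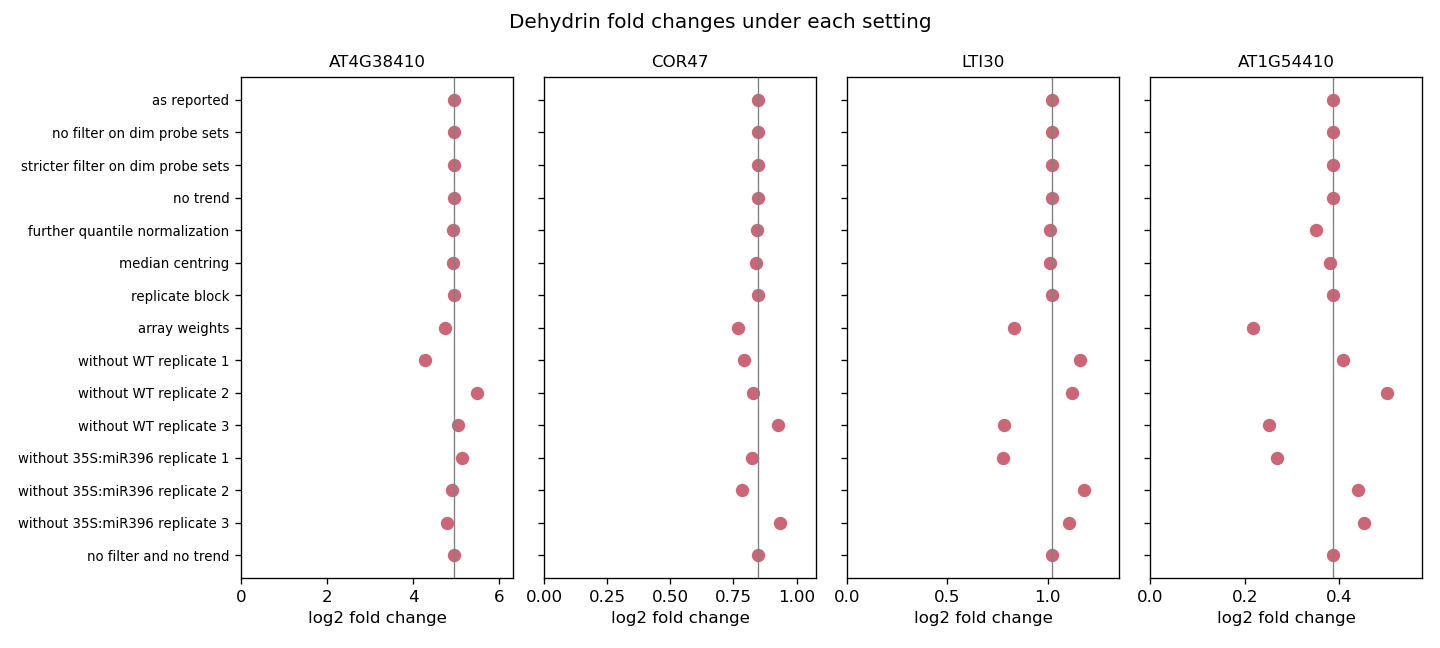
Each row is a setting of the fit and each panel a tested dehydrin, with its log2 fold change on the horizontal axis. Points are the fold changes, the grey line is the reported value, and each horizontal axis starts at 0 with its own scale. All points lie above 0, and those of AT4G38410 run from 4.28 without WT replicate 1 to 5.50 without WT replicate 2.

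Dehydrin genes are switched on by 2 routes, ABA signalling through bZIP transcription factors, and the cold pathway through the CBF/DREB factors. Of 66 listed genes of these routes and their targets, 6 were represented by a named probe set, and 3 of these were tested. All 3 rose, beside 12.7% of all tested probe sets called as higher. One of them, COR27, passed the brightness filter only through the arrays of 35S:miR396, so it could be tested only because it was higher there, and the count supports nothing about the lists. The lists were drawn up with earlier results of these data known, so the p-values given below for their genes are not independent tests. No probe set was named for the ABA receptors (9 genes), the PP2C phosphatases they inhibit (9) or the SnRK2 kinases (3). The enzymes of ABA synthesis and breakdown (9) had none either. The first steps of the hormone pathway could therefore not be read here. Probe sets unlisted in the annotation (8794) or listed with several genes (503) were not searched for them.

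EEL, a bZIP factor of ABA signalling best known from maturing seeds, was the only one of 10 ABA transcription factors with a named probe set. Any action of EEL on the dehydrin genes, raising or lowering them, was not tested. It rose in every transgenic array, with log2 levels of 5.13, 5.32 and 5.26 in WT and 8.02, 7.61 and 8.03 in 35S:miR396. The log2 fold change was 2.65 ± 0.13 (SE; adjusted p = 0.000212 by limma, from 1.36e-05 to 0.0148 over the alternatives).

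Of 15 listed cold and dehydration effectors 4 had a named probe set. The 2 that were tested rose, beside 12.7% of all tested probe sets called as higher, and nothing about the list is read from this count. COR27, a cold-induced gene tied to the circadian clock, rose from 2.86, 3.16 and 3.06 in WT, not far above the floor, to 5.94, 5.03 and 4.70. Its log2 fold change was 2.19 ± 0.30 (SE; adjusted p = 0.00483 by limma), a p that is given for a gene the filter admitted through its high group. TIL, a temperature-induced lipocalin that protects membranes, rose from 5.31, 5.47 and 5.45 to 7.38, 6.39 and 6.93. Its log2 fold change was 1.49 ± 0.23 (SE; adjusted p = 0.00712 by limma). Without the brightness filter TIL missed the threshold, at an adjusted p of 0.0603.

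COR15A and COR15B, the chloroplast-protecting proteins that are targets of the CBF factors, stayed at or near the floor. COR15A was at 2.25 in all 6 arrays, and COR15B lay between 2.26 and 2.29 in WT and at 2.25 in 35S:miR396. STZ, also called ZAT10, a zinc-finger repressor induced by cold, drought and ABA and the only cold regulator of 11 with a named probe set, was dim as well. Its level was 2.35 in each WT array and 2.42, 2.82 and 2.35 in 35S:miR396. These 3 genes were not tested, and values this low do not show that a transcript was absent.

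**Figure D4:**
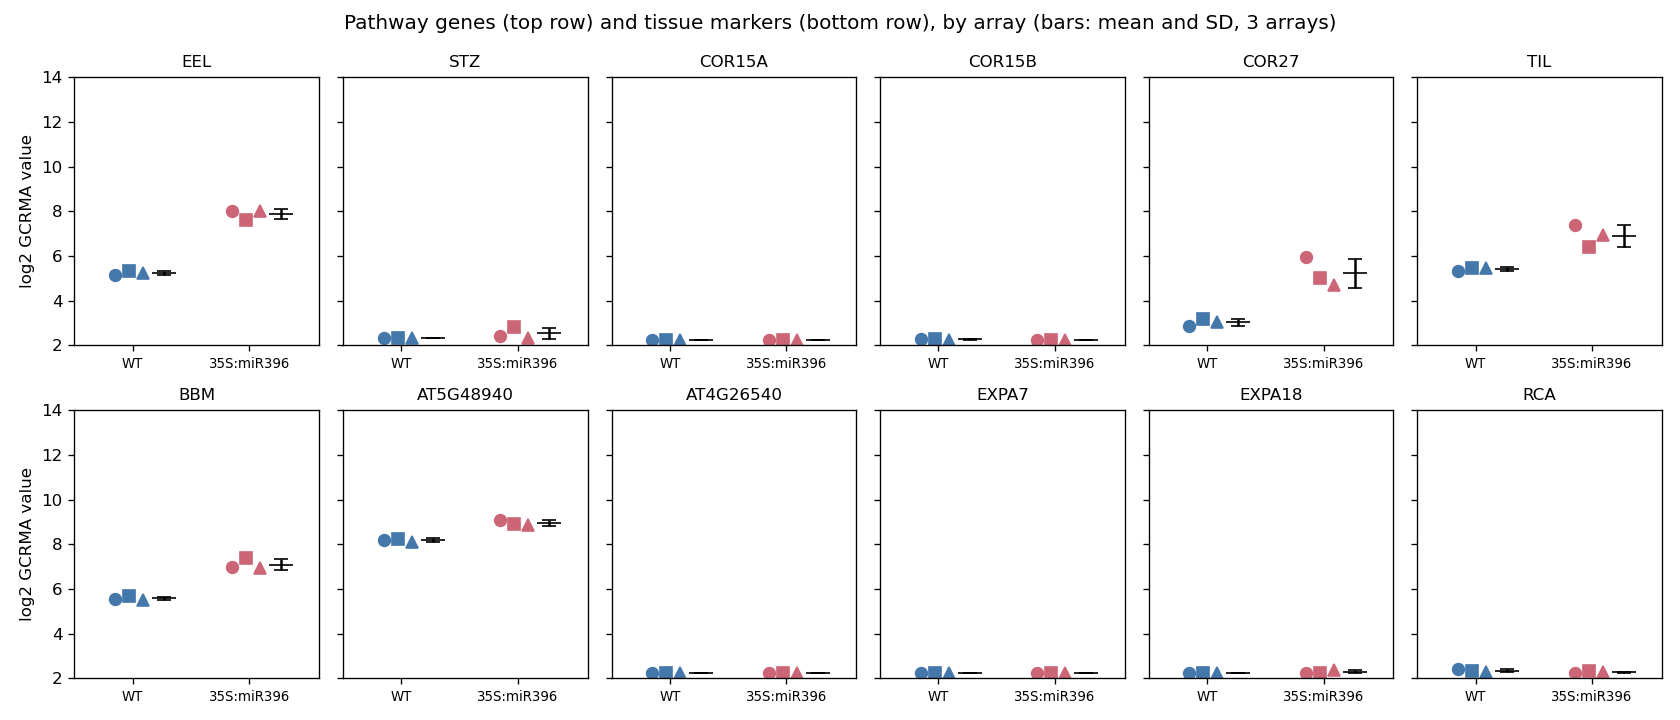
Panels show the log2 GCRMA value of 6 genes of the ABA and cold routes (top) and 6 tissue markers (bottom) by genotype. Points are single arrays, with shapes for replicates 1 (circle), 2 (square) and 3 (triangle), and black bars are the mean and SD of 3 arrays. EEL, COR27, TIL, BBM and AT5G48940 are higher in 35S:miR396, and the other 7 panels lie at or near the floor.

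Named probe sets covered 3 of 10 root meristem markers of the dissected tissue. The 2 that could be tested were higher in 35S:miR396, beside 12.7% of all tested probe sets called as higher. Their list was drawn up with earlier results of these data known, so the p-values are not independent tests. BBM, a PLETHORA-family factor of the stem cell niche, rose by 1.50 ± 0.14 (log2, SE; adjusted p = 0.00122 by limma). AT5G48940, also called RCH1, a receptor kinase of the meristem, rose by 0.77 ± 0.09 (SE; adjusted p = 0.00288 by limma). The third, the receptor kinase gene AT4G26540, was at the floor in all arrays. The summed level of the 3 ran from 8.35 to 8.50 in WT and from 9.19 to 9.41 in 35S:miR396, on the log2 scale. Linear values were summed, so the sum mostly follows AT5G48940, the brightest. Its mean was 8.18 in WT and 8.95 in 35S:miR396, beside 5.58 and 7.08 for BBM. The part of the makeup of the dissected tissue in the dehydrin values was not tested.

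Markers of neighbouring tissue that could be read were dim in both genotypes. EXPA7 and EXPA18, expansins of root hairs and 2 of 6 listed markers of the hair and elongation zone, had a summed level of 3.25 in WT and of 3.25 to 3.32 in 35S:miR396, both genes being at the floor in WT. RCA, the activase of Rubisco and the 1 measured of 6 markers of green tissue, lay between 2.27 and 2.42 in WT and between 2.26 and 2.31 in 35S:miR396. The lists for root cap (4 genes), differentiated endodermis (6), xylem (7) and phloem (3) had no named probe set. Their part in the dehydrin values was not tested. The difference between the 3' and 5' control probe sets, a sign of RNA quality, overlapped between the genotypes at all 6 control pairs for actin, GAPDH and ubiquitin. It was largest at the first actin pair, from 5.01 to 5.33 log2 units in WT and from 5.08 to 5.45 in 35S:miR396. The overlap was narrowest at the second ubiquitin pair, from -0.79 to -0.60 in WT and from -0.61 to -0.36 in 35S:miR396. The part of RNA quality in the dehydrin values was not tested.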

How the data were processed

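RNA of microdissected root meristems from 6 samples was labelled with biotin from the 3' end of transcripts and hybridised to Affymetrix arrays, per the labels' protocols. The deposited values are log2 levels, 1 for each probe set, that the authors computed with GCRMA according to the submitters' processing notes; its version is not given in the sources used here. That the scale is log2 was read from the values. GCRMA corrects background by probe sequence, sets arrays to a common scale and holds dim probe sets at a floor, so a change in total RNA cannot be seen and folds from near the floor are understated. Probe sets were named from the platform annotation (1 gene for 13513, several for 503, unlisted 8794) and matched by gene identifier to a gene table of assembly TAIR10.1. Coordinates are not given.

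Groups came from the sample titles. Control probe sets (64) were left out. R 4.3.3 and limma 3.58.1 (lmFit, eBayes with a variance trend, two-sided, Benjamini-Hochberg over all tested probe sets) were used, after a test on simulated data. Alternatives were no filter, a minimum of 6 in place of 4, no trend, quantile normalization, median centring, a replicate block, array weights and each array left out. The setting without filter and trend was added after the values were seen. Replicate numbers were not used as pairs, since the sample titles do not say whether same-numbered samples belong together. The members and lists were chosen with earlier results of these data known. Named genes were all members, up to 4 called genes of each pathway list (or its brightest tested gene), and the 3 nearest profiles of AT4G38410, COR47 and LTI30. Dim pathway genes, the tissue markers and the neighbours on the chromosome are named outside this rule. The number of arrays limits the precision.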

Additional observations from a re-analysis of the deposited data

How the results depend on the processing

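The fold changes of the 4 tested dehydrins kept their direction under all 14 alternatives. With single arrays left out they ran from 4.28 to 5.50 for AT4G38410, from 0.78 to 0.94 for COR47, from 0.78 to 1.18 for LTI30 and from 0.25 to 0.50 for AT1G54410. Of the 4, between 2 and 3 were then called, and 3 pathway genes in each case. The number of called probe sets ran from 1052 to 3813. Without the brightness filter, which tests 22746 probe sets in place of 11364, it was 941 (464 higher). It was 4749 with array weights (2339 higher) and 624 with neither filter nor trend, where 1 dehydrin (COR47) and 1 pathway gene (EEL) were called. The cause of the change with array weights was not tested. The replicate block brought AT1G54410 past the threshold (0.39, adjusted p = 0.0442), so that 4 dehydrins were called, and left 2844 calls in all. Same-numbered arrays did not deviate together in every pair (correlations of 0.40, -0.09 and 0.14 for replicates 1, 2 and 3), and the numbers are not used as pairs. Signal limits AT2G21490 and AT4G39130, which were at or near the floor.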

Other observations

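The tested genes whose profiles lay nearest to each called dehydrin were looked up, by the Euclidean distance between log2 values of the 6 arrays after the WT mean was subtracted. The nearest to AT4G38410 lay far off and were AT1G20070 (distance 3.11), AT1G33790 (3.31) and ATG8B (3.56), an ATG8 protein of the autophagosome. AT1G20070 stood at 4.77 ± 0.25 in WT and 8.20 ± 0.27 in 35S:miR396 (SD, n = 3 each), so its WT arrays were far less spread than those of AT4G38410. COR47 and LTI30 had much closer ones. For COR47 these were AT1G21090 (0.26), AT3G02690 (0.28) and AT3G14200 (0.30). For LTI30 they were AT1G26930 (0.29), AT1G26665 (0.29) and AT1G30820 (0.34). AT1G33790 (2.85 to 3.16 in WT) and AT3G02690 (3.55 to 3.70 in WT) passed the brightness filter only through the arrays of 35S:miR396. The search ran over 6225 named probe sets and these 6 arrays, so a shared order of the arrays follows from the choice. Values were not scaled per gene, so a distance also depends on the size of the fold change and on the spread. Nothing is read from the larger distances of AT4G38410, which had the highest fold change.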
